A study of Mus musculus with 25 samples.

Results

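Versican, hyaluronan and the enzymes and receptor of hyaluronan metabolism were followed in mouse Achilles tendon through 7 genes, picked by symbol from the 55487 genes of the deposited count table. They are Vcan (versican), Has1, Has2 and Has3 (the hyaluronan synthases), Cd44 (the main cell-surface receptor of hyaluronan), and Hyal1 and Hyal2 (hyaluronidases). The study sequenced 25 RNA libraries of Achilles tendon, all from mice 3 months old. The groups were AMPKcKO mice that ran on wheels (cKO running, 3 male and 3 female), wild-type wheel runners (WT running, 3 male and 3 female), AMPKcKO mice with cage activity (cKO cage, 3 male and 3 female), and wild-type mice with cage activity (WT cage, 3 male and 4 female). The title of the series names AMPKα1, the catalytic subunit encoded by Prkaa1, as the protein lost, and the labels do not give the promoter that drives Cre or the length of wheel running. The labels do not say whether each library is a separate animal, so p-values measure the spread between libraries.

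Hyaluronan is a long, unsulfated sugar chain that HAS enzymes in the plasma membrane extrude from UDP-glucuronic acid and UDP-N-acetylglucosamine. Versican is a chondroitin sulfate proteoglycan whose amino-terminal domain binds hyaluronan, with link proteins securing the complex, and ADAMTS proteases cut its core protein. CD44 binds hyaluronan outside the cell and ties it to the cytoskeleton through ezrin, radixin and moesin. HYAL2, held at the cell surface, cuts long chains, and HYAL1 degrades the pieces further in lysosomes. In tendon this hydrated matrix lies around cells and between fascicles, next to the dense type I collagen that carries load.

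Libraries held 13193228 to 45724243 counts, with a median of 24538109. Tendon genes were present in every library, with Col1a1 (type I collagen) at 1849 CPM (counts scaled to library size with TMM factors) or more and Tnmd (tenomodulin) at 15.3 CPM or more. The targeted gene Prkaa1 had 16.2 to 22.6 CPM in cKO running tendons, 15.6 to 31.1 CPM in WT running tendons, 13.9 to 21.2 CPM in cKO cage tendons and 13.4 to 31.2 CPM in WT cage tendons, so its ranges overlapped. Its log2 fold change, cKO against WT over both activities, was -0.36 ± 0.12 (SE) with an edgeR adjusted p of 0.981, and counts over the whole gene do not single out the deleted exons. Cre counts were found in 11 of 12 cKO libraries and were 0 in cKO cage female replicate 3. An added eGFP entry reached at least 10 CPM in 6 of 6 cKO and 1 of 6 WT libraries of runners, and in 2 of 6 cKO and 0 of 7 WT libraries of cage tendons. On the second principal component, WT running female replicate 2 and WT running male replicate 3 lay apart from the rest. Another pair, cKO cage male replicate 3 with WT cage female replicate 4, has a rarer project number in the library names than the other 23. The calls are given with and without these libraries.

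All 7 genes lie on autosomes of the GRCm38 build. Vcan (ENSMUSG00000021614) spans chr13:89655312-89742509 on the minus strand, Cd44 (ENSMUSG00000005087) spans chr2:102811141-102901665 on the minus strand, and each has 9 annotated transcripts that the gene-level counts pool, so splice forms are not told apart. Has1 (ENSMUSG00000003665) spans chr17:17843323-17855205, Has2 (ENSMUSG00000022367) spans chr15:56665627-56694539, and both are on the minus strand. Has3 (ENSMUSG00000031910) spans chr8:106870242-106884566 on the plus strand. Hyal2 (ENSMUSG00000010047) at chr9:107567945-107572779 and Hyal1 (ENSMUSG00000010051) at chr9:107576927-107581710 are neighbours on the plus strand. Has3 overlaps Chtf8 on the other strand, which had 19.0 to 30.4 CPM, and Hyal1 overlaps Naa80 on its own strand, which had 2.55 to 11.7 CPM. Whether the counting used strand is not stated, so the values of Has3 are uncertain. Those of Hyal1 are uncertain either way, since strand does not separate Hyal1 from Naa80. The antisense gene Has2os, which overlaps Has2, had at most 0.611 CPM.

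The 250 bases before the start site are shown for Vcan, Cd44 and Has1, the trio whose levels varied together over the libraries (values are given further on). They are RefSeq sequences of GRCm38.p6, minus strand, 5′ to 3′, at chr13:89742513-89742762, chr2:102901666-102901915 and chr17:17855189-17855438, and capitals mark matches to the motifs searched on both strands.
Vcan: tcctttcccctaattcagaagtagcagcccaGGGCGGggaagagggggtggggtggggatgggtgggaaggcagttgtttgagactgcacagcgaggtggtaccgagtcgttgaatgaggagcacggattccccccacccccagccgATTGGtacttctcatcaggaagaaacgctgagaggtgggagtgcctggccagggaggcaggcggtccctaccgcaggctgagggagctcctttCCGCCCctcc
Cd44: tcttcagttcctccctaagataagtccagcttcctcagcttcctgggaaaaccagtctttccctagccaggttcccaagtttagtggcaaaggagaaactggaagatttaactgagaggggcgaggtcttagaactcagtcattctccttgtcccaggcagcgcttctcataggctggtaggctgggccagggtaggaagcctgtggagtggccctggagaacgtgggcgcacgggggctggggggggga
Has1: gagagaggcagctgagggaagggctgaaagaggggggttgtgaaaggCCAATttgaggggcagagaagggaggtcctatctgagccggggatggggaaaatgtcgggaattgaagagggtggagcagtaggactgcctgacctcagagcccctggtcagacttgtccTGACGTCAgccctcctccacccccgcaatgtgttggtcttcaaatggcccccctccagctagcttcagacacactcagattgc
The motifs were TATAAA (bound by TBP), GGGCGG (bound by Sp1), TGANTCA (bound by AP-1), TGACGTCA (the cyclic AMP response element), CTTTGAA (bound by TCF and LEF factors), CACGTG (an E-box) and CCAAT (bound by NF-Y), none of which lies inside another as written. Vcan held GGGCGG at 219 and 10 bases before the start and CCAAT at 103 bases before it. Has1 held TGACGTCA 83 bases before the start and CCAAT 203 bases before it. The Cd44 window held none of the 7. Of 32851 promoter windows of this length, 1.55% held TGACGTCA, 32.7% held GGGCGG and 33.8% held CCAAT. The shares were 12.4% for TATAAA, 6.75% for TGANTCA, 4.46% for CTTTGAA and 6.02% for CACGTG, and no motif of those searched was common to all 3 windows. Of the 7 genes, 5 were matched in the promoter table, Has2 and Has3 not.

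Compared per length in the authors' FPKM, Vcan and Cd44 stood well above the enzymes. Vcan averaged 16.4 ± 8.36 FPKM (SD, n = 25) and Cd44 averaged 14.4 ± 5.26 FPKM. These are levels within 1 SD of each other, with Vcan above Cd44 in 17 of 25 libraries. Cd44 exceeded Hyal2 in 25 of 25 libraries, where Hyal2 averaged 4.91 ± 2.21 FPKM. Hyal2 exceeded Hyal1, at 2.59 ± 1.42 FPKM, in 23 of 25. Hyal1 exceeded Has2 in 20 of 25. The synthases came last and close together, with Has2 at 1.76 ± 0.978, Has1 at 1.51 ± 0.784 and Has3 at 1.27 ± 0.518 FPKM. Has2 was above Has1 in 17 of 25 libraries and Has1 above Has3 in 14 of 25, so their order was not kept from library to library.

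The spread between libraries differed among the genes. Vcan ranged over a factor of 6.92 from the lowest to the highest library in CPM, whereas Has3 ranged over a factor of 2.20. The coefficient of variation of Vcan was 12.9% in cKO running, 49.8% in WT running, 20.6% in cKO cage and 40.9% in WT cage tendons. Has1 rested on 29 to 269 counts per library and Hyal2 on 58 to 452, so their relative counting error is larger than that of Vcan, which had 814 to 6163 counts.

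**Figure D1:**
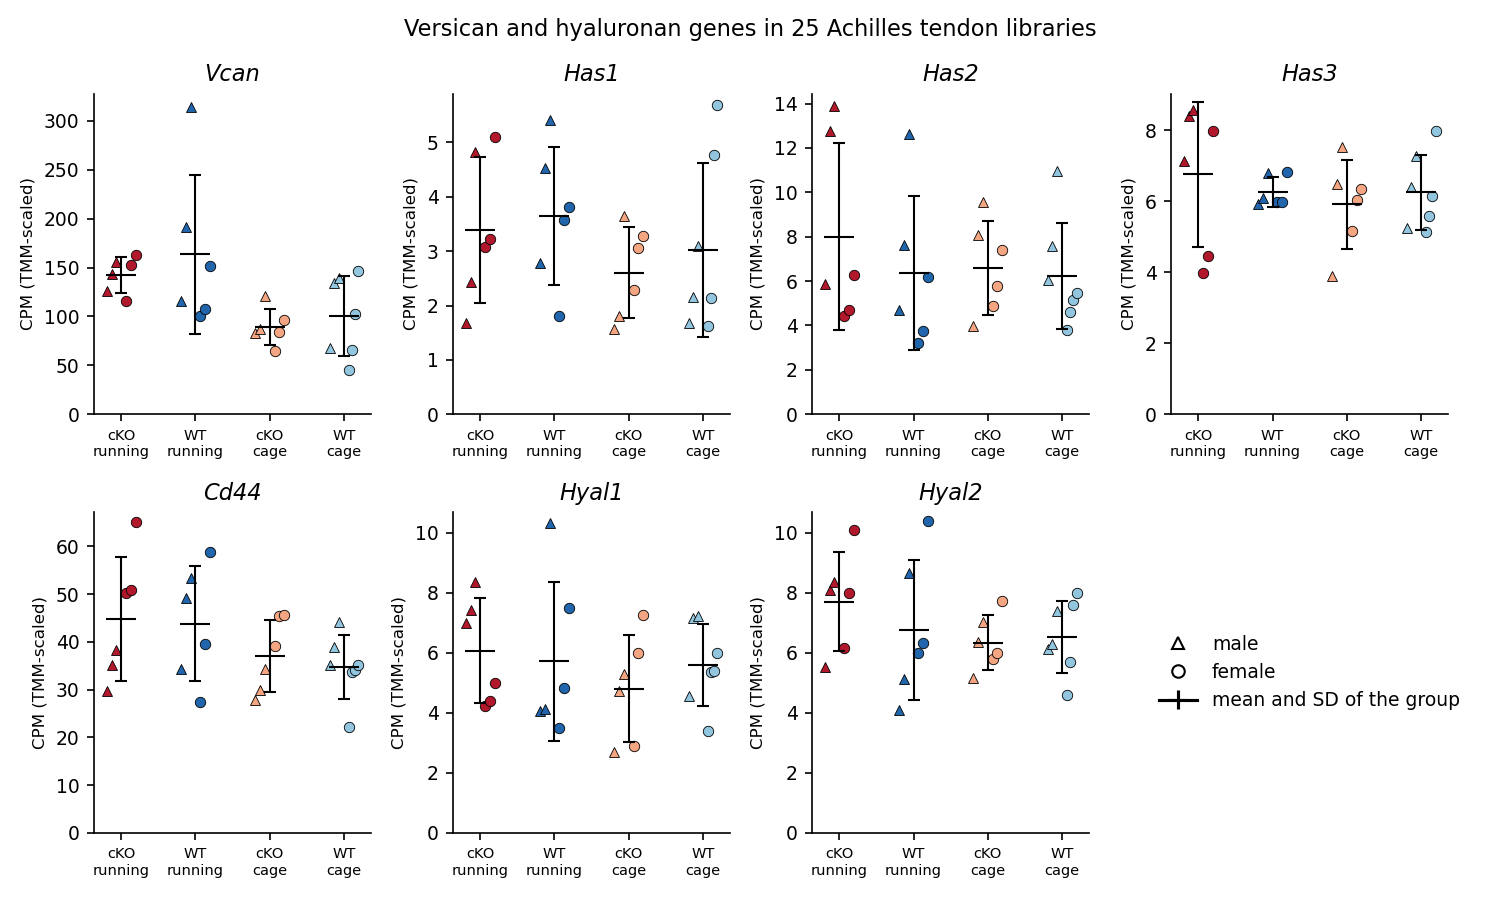
Level of each of the 7 genes by library, on the y axis in TMM-scaled CPM, for cKO running, WT running, cKO cage and WT cage tendons; triangles are male and circles female libraries, and the cross is the mean with the SD. For Vcan all 12 runners lie above the cage median of 87.3 CPM, and the single highest library is a WT running male at 315 CPM.

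Wheel running was the comparison in which versican moved. Vcan mRNA was higher in runners than in cage tendons by 1.59-fold as the mean of both genotypes, and the other 6 genes did not pass the test. The fitted log2 fold changes were 0.69 in cKO and 0.66 in WT tendons, and Cd44 had the next smallest p.

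Vcan had 115 CPM in the lowest, 148 CPM in the median and 163 CPM in the highest of the 6 cKO running libraries, against 65.0, 85.7 and 121 CPM in the 6 cKO cage libraries. In wild-type animals it had 101, 133 and 315 CPM in the 6 running libraries, against 45.5, 102 and 146 CPM in the 7 cage libraries. In cKO tendons 5 of 6 running libraries lay above every cage library, in WT tendons 3 of 6 did, and the groups overlapped in both genotypes. The log2 fold change, running against cage as the mean of both genotypes, was 0.67 ± 0.17 (SE), with a 95% interval of 0.31 to 1.03. In edgeR's quasi-likelihood test with Benjamini-Hochberg adjustment over the 19155 genes tested, its adjusted p was 0.0498. At an adjusted p under 0.05 this comparison called 273 genes, 1.43% of those tested, 117 of them (0.611%) higher in runners, and Vcan ranked 263 of all genes by p. Of the 7 genes, all of which were tested, 1 was called.

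Within cKO tendons the Vcan log2 fold change was 0.69 ± 0.25 with an edgeR adjusted p of 0.248, and within WT tendons it was 0.66 ± 0.24 with an edgeR adjusted p of 0.343. None of the 7 was called within either genotype, where 0.0418% of genes in cKO and 0.131% in WT were. The difference between these effects, the genotype-by-running interaction, was 0.03 ± 0.35 for Vcan with a 95% interval of -0.69 to 0.75 and an edgeR adjusted p of 0.986. That interval is wide enough to hold a difference as large as the effect itself. In whole tissue, more cells that make versican and more versican mRNA per cell cannot be told apart.

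The Vcan call lay at the threshold and was lost under small changes, while its direction was kept in all of them. With 1 library left out at a time the log2 fold change was 0.55 to 0.75, and the call held in 6 of 25 such fits. It held without cKO running male replicate 2, WT running female replicates 2 and 3, WT running male replicate 1, or WT cage female replicates 1 and 4, and was lost without any other single library, with edgeR adjusted p-values from 0.0238 to 0.0997 over the 25 fits. The highest of these, with a log2 fold change of 0.55, was without WT running male replicate 3, the library at 315 CPM. Without both libraries apart on the second principal component it was 0.57 with an edgeR adjusted p of 0.0974. It was 0.70 with an edgeR adjusted p of 0.0932 without cKO cage female replicate 3 and WT running male replicate 2. The former had 0 Cre counts under a cKO label, and the latter carried eGFP, with 0 Cre counts, under a WT label. The Vcan log2 fold change was 0.78 with an edgeR adjusted p of 0.0338 without the 2 libraries of the less common project.

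**Figure D2:**
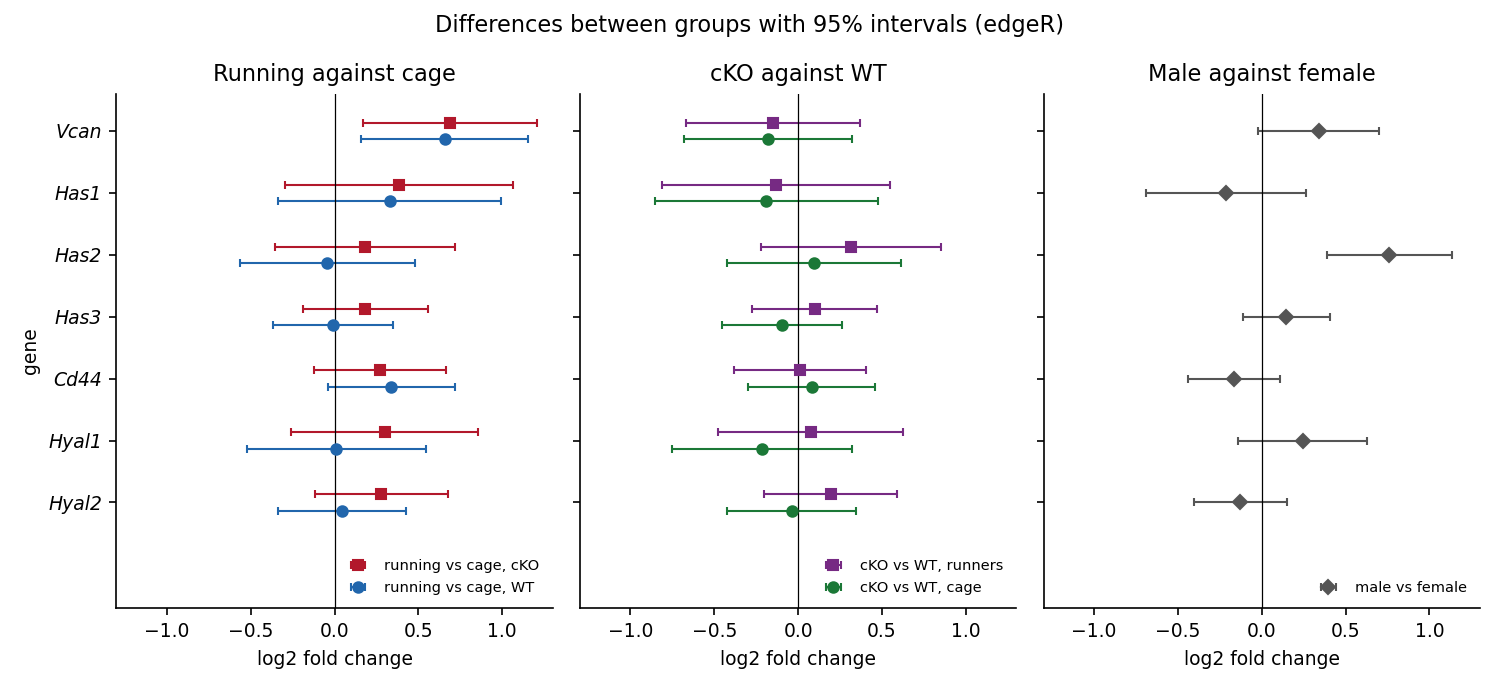
Log2 fold change of each gene (x axis) with its 95% interval, from edgeR, for running against cage in cKO and WT, cKO against WT in runners and at cage activity, and male against female. The Vcan intervals in the running panel and the Has2 interval in the sex panel lie above 0.

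Cd44, the hyaluronan receptor, had 29.7 CPM in the lowest, 44.2 CPM in the median and 65.0 CPM in the highest cKO running library, against 27.8, 36.8 and 45.6 CPM in cKO cage libraries. In WT it had 27.4, 44.4 and 58.8 CPM in running libraries, against 22.2, 35.0 and 44.1 CPM in cage libraries. Of the 12 runners, 9 lay above the median of the 13 cage libraries, and the ranges overlapped in both genotypes. The log2 fold change over both genotypes was 0.30 ± 0.13 (95% interval 0.03 to 0.58), with an unadjusted p of 0.0299 and an edgeR adjusted p of 0.274, in a comparison where 2849 genes (14.9%) had an unadjusted p under 0.05.

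The synthases and hyaluronidases did not pass the test, and every one of their 95% intervals held 0. Has1, a synthase, had 1.67 to 5.10 CPM in cKO running and 1.81 to 5.41 CPM in WT running libraries, against 1.57 to 3.64 CPM in cKO cage and 1.62 to 5.69 CPM in WT cage libraries. Its log2 fold change over both genotypes was 0.36 ± 0.23 with a 95% interval of -0.12 to 0.83. For Has2, the synthase essential for the embryonic heart in mice, it was 0.07 ± 0.18 (interval -0.31 to 0.44), and for Has3 it was 0.09 ± 0.13 (interval -0.17 to 0.35). Hyal1, the lysosomal hyaluronidase, gave 0.15 ± 0.19 (interval -0.23 to 0.54) and Hyal2, the cell-surface one, gave 0.16 ± 0.13 (interval -0.11 to 0.44). All 7 log2 fold changes were above 0, with a median of 0.16 against 0.01 over all tested genes, and those of Has1 and Has2 fell below 0, at -0.03 and -0.10, with mitochondrial rRNA share as a covariate. The 2 highest of the Has2 values in cKO running, 12.8 and 13.9 CPM, were both male libraries.

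Genes around these 7 were listed by role, 66 in all, of which 65 were in the table and 55 were tested. None of the 55 was called in any of the 8 comparisons, so the values that follow, for the 2 genes above and the 2 below 0 with the smallest p in a comparison, are descriptions. Over both genotypes 36 of 55 had log2 fold changes above 0 in runners, with a median of 0.07. Among all tested genes 52.2% were above 0, with a median of 0.01. On the log2(FPKM + 1) scale of the authors' values 43 of 55 were above 0, and the median of all genes there was itself 0.11. Among the versican-cleaving ADAMTS proteases 5 of 6 were below 0, under RLE scaling and in FPKM too. Adamts1, which cuts versican, had 22.5 CPM in the lowest, 32.8 CPM in the median and 40.9 CPM in the highest of the 12 running libraries, against 27.5, 42.4 and 65.5 CPM in the 13 cage libraries. These ranges overlapped, and the Adamts1 log2 fold change was -0.46 ± 0.13 with an edgeR adjusted p of 0.0628. The other hyaluronan receptors had 4 of 5 above 0. Stab1, a scavenger receptor of sinusoidal endothelium and macrophages, had 52.9, 87.2 and 146 CPM in running libraries, against 37.6, 71.5 and 92.8 CPM in cage libraries, with a log2 fold change of 0.50 ± 0.15 and an edgeR adjusted p of 0.1005. Lysosomal and other hyaluronan-degrading genes had 5 of 5 above 0. Among them Hexa, the alpha subunit of beta-hexosaminidase, gave 0.26 ± 0.09 with an edgeR adjusted p of 0.140. Gfpt1, the first enzyme of the hexosamine pathway that supplies UDP-N-acetylglucosamine, gave -0.21 ± 0.06 with an edgeR adjusted p of 0.106. Chondroitin sulfate synthesis genes, which build the sugar chains of versican, had 15 of 19 above 0 with a median of 0.10.

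Within cKO tendons the genes so named were Xylt2, a xylosyltransferase that starts chondroitin sulfate chains, at 0.58 ± 0.18, and Stab1 at 0.66 ± 0.22, each with an edgeR adjusted p of 0.218. Below 0 were Fam20b, the kinase that phosphorylates the xylose of the linker, at -0.45 ± 0.13 with 0.174, and Hapln3, a link protein, at -1.04 ± 0.42 with 0.278. Within WT tendons Uap1, which makes UDP-N-acetylglucosamine, gave 0.25 ± 0.09 with an edgeR adjusted p of 0.320, and Hexa gave 0.32 ± 0.12 with 0.354. Adamts9, a further versican-cleaving protease, gave -0.62 ± 0.17 with 0.158, and Gfpt1 gave -0.30 ± 0.09 with 0.203. Different genes were therefore named in cKO and in WT, and a difference between the genotypes was not called for any of them.

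**Figure D3:**
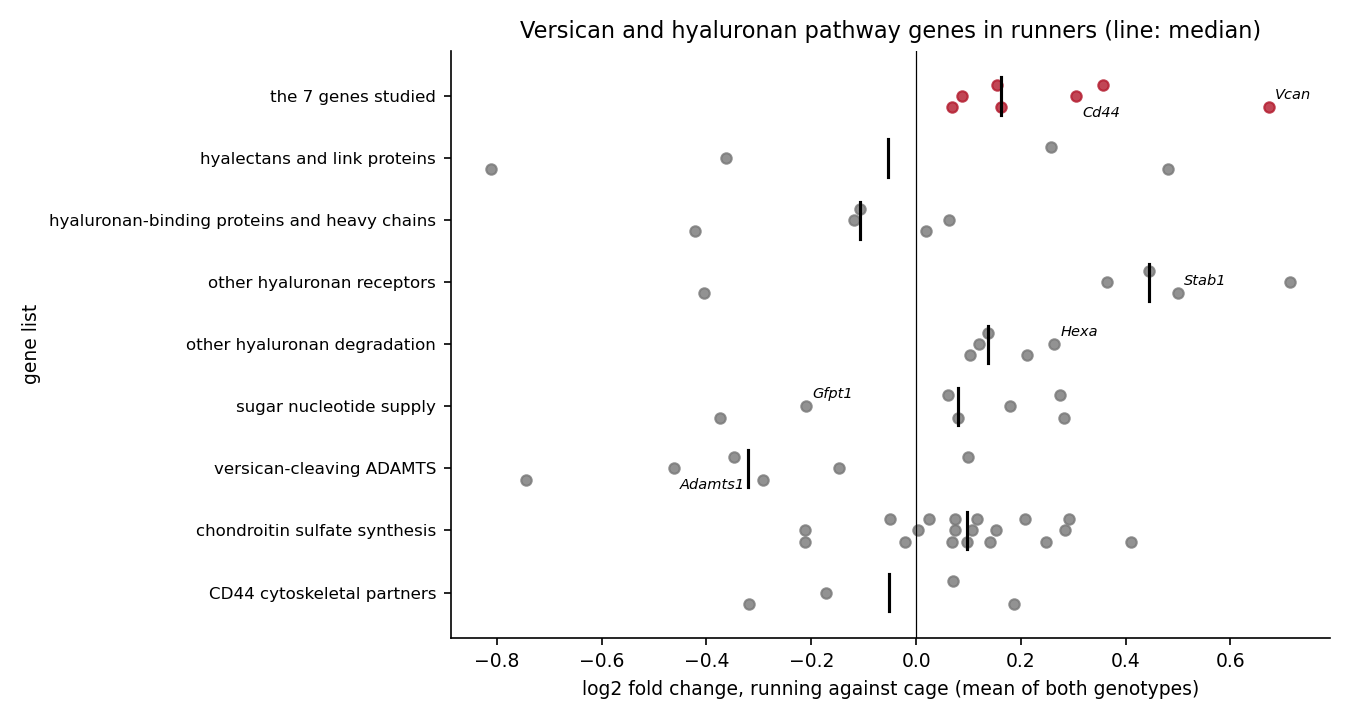
Log2 fold change, running against cage as the mean of both genotypes (x axis), for each tested gene of the 7 studied (red) and of 8 lists by role (grey), with the median of each row as a line. Vcan lies farthest right among the 7 at 0.67, and 5 of 6 versican-cleaving ADAMTS genes lie left of 0.

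Most markers of several other cell types had log2 fold changes above 0 in runners, and most of those of fast muscle fibres below 0. Of 18 macrophage genes 17 had log2 fold changes above 0 with a median of 0.48 and none was called, and their summed level was 285 to 936 CPM in running libraries and 233 to 757 CPM in cage libraries. Of 14 genes of sheath and progenitor fibroblasts 12 were above 0 and 2 were called. These were Pi16, a marker of progenitor fibroblasts, at 0.81 ± 0.18 with an edgeR adjusted p of 0.0233, and Tspan15 at 0.51 ± 0.12 with an edgeR adjusted p of 0.0328. The summed level of that list was 3757 to 8232 CPM in running libraries and 1918 to 5634 CPM in cage libraries. Of 10 Schwann cell genes 10 were above 0, with a summed level of 81.6 to 1502 CPM in running libraries and 56.2 to 575 CPM in cage libraries. Their median was 2.10 within cKO and 0.12 within WT tendons. Of 10 endothelial genes 3 were above 0, with a median of -0.06, and of 8 adipocyte genes 5 were, with a median of 0.03. Of 7 tested mast cell genes 7 were above 0, with a median of 0.56 and a summed level of 11.8 to 58.7 CPM in running libraries and 8.98 to 55.7 CPM in cage libraries, and of 9 mural and smooth muscle genes 8 were above 0, at 1305 to 4065 CPM in running libraries and 1217 to 3607 CPM in cage libraries. Of 20 fast muscle fibre genes 3 were above 0 over both genotypes, with a median of -0.17. In cKO tendons 0 of these 20 were above 0, with a median of -0.53 and a summed level of 22014 to 83704 CPM in running libraries and 46003 to 173217 CPM in cage libraries. In WT tendons 16 of the 20 were above 0, with a median of 0.17. Of 10 slow muscle fibre genes 6 were above 0 and 1 was called, Csrp3, a protein of the muscle sarcomere, at 1.31 ± 0.24 with an edgeR adjusted p of 0.00527. With the mean level of fast and slow fibre genes together as a covariate the Vcan call was kept. Of 14 tenocyte genes 5 were above 0 in CPM and 10 of 14 on the log2(FPKM + 1) scale, and 1 was called, Cilp, a matrix protein of cartilage, at 0.70 ± 0.15 with an edgeR adjusted p of 0.0142. The median of all genes on that FPKM scale was 0.11. None of these marker lists had a gene at 0 in every library. The share of counts in the mitochondrial rRNA genes was 20.8% ± 4.61 in 12 running libraries and 24.4% ± 3.85 in 13 cage libraries (SD), and with that share as a covariate the Vcan log2 fold change was 0.55 with an edgeR adjusted p of 0.316. With eGFP carriage as a covariate it was 0.75 with an edgeR adjusted p of 0.279. The part of muscle or of the other marker genes in the Vcan result was not tested.

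Loss of AMPKα1 was the contrast the study was built on, and no versican or hyaluronan gene passed the test in it. In runners 0 genes of 19155 (0%) had an edgeR adjusted p under 0.05 and 2173 (11.3%) had an unadjusted p under 0.05. At cage activity the test called 0 genes (0%), with 217 (1.13%) at an unadjusted p under 0.05. For the mean over both activities it called 1 gene (0.00522%), which is not among the 7. DESeq2 called 0 of the 7 in these comparisons. For Vcan, cKO running libraries (115 to 163 CPM) lay within the range of WT running libraries (101 to 315 CPM), and cKO cage libraries (65.0 to 121 CPM) lay within that of WT cage libraries (45.5 to 146 CPM). The Vcan log2 fold change in runners, -0.15 ± 0.25, turned to 0.04 without the 2 libraries apart on the second principal component.

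The intervals bound how far the genotypes may differ. As the mean of both activities the log2 fold change, cKO against WT, was -0.16 ± 0.17 for Vcan with a 95% interval of -0.52 to 0.19. For Cd44 it was 0.05 ± 0.13 with an interval of -0.23 to 0.32. Has2 gave 0.20 ± 0.18 (interval -0.17 to 0.58), Has1 gave -0.16 ± 0.23 (interval -0.63 to 0.31) and Has3 gave 0.00 ± 0.13 (interval -0.26 to 0.26). Hyal1 gave -0.07 ± 0.19 (interval -0.45 to 0.31) and Hyal2 gave 0.08 ± 0.13 (interval -0.20 to 0.35). Of the 7, 4 were above 0 and 3 below, with a median of 0.00 against 0.00 over all genes, and Has3, Cd44, Hyal1 and Hyal2 changed sign under at least 1 alternative. In runners alone Has3 had 4 of 6 cKO libraries above every WT library and the other 2 below all of them, at 3.97 and 4.46 CPM, and its log2 fold change of 0.10 ± 0.18 had an edgeR adjusted p of 0.841.

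Among the genes around them, 3 of the 4 so named in cKO against WT runners belong to chondroitin sulfate synthesis, and the other is Stab2, a scavenger receptor for hyaluronan, at -0.57 with an edgeR adjusted p of 0.457. The chondroitin sulfate list is the largest, with 19 of the 55 tested genes, and none of the 4 was called. Ust, which sulfates uronic acid in these chains, had 13.8 CPM in the lowest, 19.4 CPM in the median and 27.5 CPM in the highest cKO running library, against 9.59, 12.8 and 16.3 CPM in WT running libraries. Its log2 fold change was 0.63 ± 0.19 with an edgeR adjusted p of 0.366. Xylt2 gave 0.51 ± 0.18 with an edgeR adjusted p of 0.388, and Fam20b gave -0.37 ± 0.13 with an edgeR adjusted p of 0.387. At cage activity Layn, a hyaluronan receptor, gave 0.43 ± 0.27 and Chsy1, a chondroitin synthase, 0.15 ± 0.14, while Adamts9 gave -0.34 ± 0.17 and Chsy3, another chondroitin synthase, -0.45 ± 0.23, all with edgeR adjusted p-values of 0.9999. Over both activities Ust gave 0.32 ± 0.13, Layn 0.46 ± 0.19, Cemip, a hyaluronan-depolymerising protein, -0.54 ± 0.23 and B3gat3, which adds the glucuronic acid of the linker, -0.16 ± 0.08, all with edgeR adjusted p-values of 0.981. Of 55 genes, 37 were above 0 in cKO against WT runners and 31 of 55 at cage activity. Among all tested genes the shares above 0 were 51.3% and 50.5%. Muscle fibre genes took 8.64% of counts in cKO running and 14.1% in WT running libraries on average, a difference with an exact permutation p of 0.0303 (two-sided, 6 against 6) and 0.121 after adjustment over 4 such comparisons, and their part in these values was not tested.

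The genotype-by-running interaction called 0 of 19155 genes (0%) in edgeR, with 1377 (7.19%) at an unadjusted p under 0.05. The 7 log2 values ran from -0.07 for Cd44 to 0.29 for Hyal1, 6 of them above 0, with those of Vcan, Has1 and Cd44 changing sign under at least 1 alternative, and the smallest edgeR adjusted p was 0.803, for Hyal2. DESeq2 called 0 of the 7 in it. Among the genes around them Pgm3, of the hexosamine pathway, gave 0.46 ± 0.16, Xylt2 0.66 ± 0.26 and Fam20b -0.47 ± 0.18 in the interaction, each with an edgeR adjusted p of 0.672, and Ugp2, which makes UDP-glucose, gave -0.56 ± 0.37 with 0.681.

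The second of the 7 genes to pass a test was Has2, and it did so between the sexes. Has2 mRNA was 1.70-fold higher in male than in female tendons. Vcan, Cd44 and the others did not pass.

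Male libraries had 5.86, 12.8 and 13.9 CPM of Has2 in cKO runners, against 4.44, 4.70 and 6.27 CPM in female cKO runners. In WT runners males had 4.70, 7.63 and 12.6 CPM and females 3.20, 3.74 and 6.20 CPM. The highest values in both runner groups are male, and the lowest male library of each lies within the female range. At cage activity cKO males had 3.97, 8.10 and 9.58 CPM and cKO females 4.87, 5.76 and 7.38 CPM. WT cage males had 6.06, 7.57 and 10.95 CPM, above all 4 WT cage females at 3.80, 4.61, 5.16 and 5.45 CPM. Over all groups 8 of 12 male libraries lay above the highest of 13 female libraries, at 7.38 CPM. How many of all genes separate the sexes to this degree is not given, so these counts only describe Has2.

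The Has2 log2 fold change, male against female, was 0.76 ± 0.18 with a 95% interval of 0.39 to 1.14 and an edgeR adjusted p of 0.0496. The comparison called 118 genes (0.616%), 61 of them (0.318%) higher in males, and Has2 ranked 112 by p. With 1 library left out at a time the log2 fold change was 0.67 to 0.85, and the call held in 6 of 25 fits, with edgeR adjusted p-values of 0.0130 to 0.124. It held without cKO running male replicate 1, WT running male replicate 1, WT running female replicate 2, cKO cage male replicate 2, cKO cage female replicate 2 or WT cage male replicate 3, and was lost without any other single library. On log2(FPKM + 1) the difference was 0.40 and its limma adjusted p 0.445. Without the libraries that carry eGFP it was 0.65 with an edgeR adjusted p of 0.423. Without cKO cage female replicate 3 and WT running male replicate 2 it was 0.78 with an edgeR adjusted p of 0.0865, and without WT running female replicate 2 and WT running male replicate 3 it was 0.73 with an edgeR adjusted p of 0.0397. Without the 2 libraries of the less common project the edgeR adjusted p was 0.122. Within cKO tendons the Has2 log2 fold change was 0.67 ± 0.26 with an edgeR adjusted p of 0.364. Within WT tendons it was 0.85 ± 0.25 with an edgeR adjusted p of 0.481, so Has2 was called in neither genotype alone. The difference between these values, -0.18 ± 0.36, had an edgeR adjusted p of 0.9998.

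**Figure D4:**
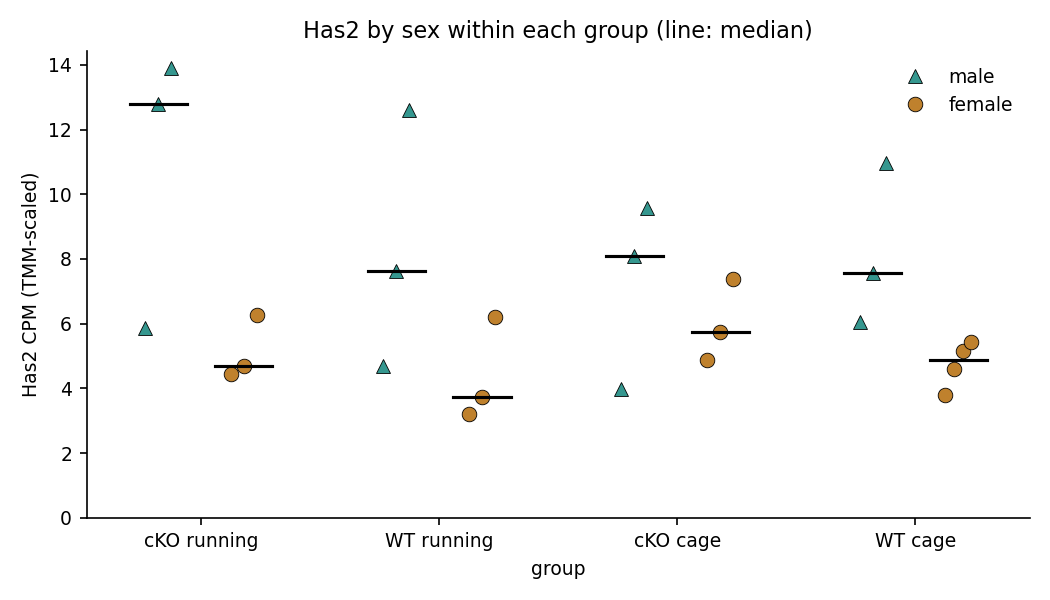
Has2 level by library in TMM-scaled CPM (y axis) for male and female tendons of each group, with the median as a line. Male medians lie above female medians in all 4 groups. In WT cage tendons all 3 males lie above all 4 females, while the sexes overlap in the other groups.

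The make-up of synthase mRNA by sex was described per length, with no test. Has2 was 43.8% ± 7.46 (SD, n = 12) of the summed FPKM of the 3 synthases in male libraries and 32.1% ± 5.11 (n = 13) in female libraries. Has2 was the highest of the 3 in 9 of 12 male and in 4 of 13 female libraries, whereas Has1 was highest in 1 male and 6 female libraries. The other synthases gave -0.21 ± 0.23 for Has1 and 0.15 ± 0.13 for Has3 as log2 fold changes, male against female, with edgeR adjusted p-values of 0.834 and 0.763.

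Vcan gave 0.34 ± 0.17 between the sexes with an edgeR adjusted p of 0.537, Hyal1 0.24 ± 0.19 and Hyal2 -0.13 ± 0.13. Of the genes around them the 55 tested were 32 above and 23 below 0. Among all tested genes 49.4% were above 0. Acan, the large aggregating proteoglycan of cartilage, had 0.859 CPM in the lowest, 7.48 CPM in the median and 15.2 CPM in the highest male library, against 1.23, 2.93 and 7.07 CPM in females, with a log2 fold change of 1.09 ± 0.39 and an edgeR adjusted p of 0.294. Itih2, an inter-alpha-trypsin inhibitor heavy chain that is attached to hyaluronan, gave -0.67 ± 0.23 with an edgeR adjusted p of 0.280. Adamts4, an aggrecanase that also cuts versican, gave 0.75 ± 0.27 with an edgeR adjusted p of 0.286. Cemip2, a cell-surface hyaluronidase, gave -0.23 ± 0.08 with an edgeR adjusted p of 0.296. All 18 macrophage genes, all 10 Schwann cell genes and 12 of 14 sheath fibroblast genes had log2 fold changes below 0 in males, and 1 of the sheath list, Col14a1, a fibril-associated collagen, was called at -0.74 ± 0.15 with an edgeR adjusted p of 0.00915. Their summed levels were 266 to 836 CPM in males and 233 to 936 CPM in females for macrophage genes, 2520 to 8232 CPM in males and 1918 to 7224 CPM in females for sheath genes, and 56.2 to 513 CPM in males and 74.3 to 1502 CPM in females for Schwann cell genes. Mast cell genes were above 0 in males for 0 of 7, with a median of -0.81 and a median summed level of 15.6 CPM in males and 23.3 CPM in females. Fast muscle fibre genes ran the same way as Has2, with 19 of 20 above 0, a median of 0.42 and a summed level of 22014 to 227123 CPM in males and 24571 to 169381 CPM in females. Slow muscle fibre genes ran the other way, with 2 of 10 above 0 and a median of -0.35. With the mean level of fast and slow fibre genes together as a covariate the Has2 call was kept. The part of muscle or of the other markers in the Has2 result was not tested.

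Cd44 gave values of opposite sign between the sexes in cKO and in WT tendons, a pattern chosen for a test after its values were seen. Male cKO runners had 29.7, 35.1 and 38.2 CPM of Cd44, against 50.3, 50.8 and 65.0 CPM in female cKO runners. Male cKO cage tendons had 27.8, 30.0 and 34.3 CPM, against 39.2, 45.3 and 45.6 CPM in female cKO cage tendons. In both cKO groups every male lay below every female. The share of all genes that separate in this way is not given here, so this is a description. In WT runners males had 34.3, 49.2 and 53.3 CPM and females 27.4, 39.5 and 58.8 CPM, and in WT cage tendons males had 35.0, 39.0 and 44.1 CPM and females 22.2, 33.6, 34.1 and 35.1 CPM. In WT the sexes overlapped and the male medians were the higher ones.

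In a fit with a mean for each genotype, activity and sex, the Cd44 log2 fold change, male against female, was -0.59 ± 0.16 in cKO tendons and 0.23 ± 0.15 in WT tendons. The difference between these values was -0.82 ± 0.22 with an unadjusted p of 0.000983. It did not pass adjustment over all genes, at an edgeR adjusted p of 1.00, in a test that called 0 genes (0%) and in which 795 (4.15%) had an unadjusted p under 0.05. Without a filter on low counts the Cd44 value was -0.81 with an edgeR adjusted p of 0.0381, so that fit calls it, and the other 6 alternatives with all or all but 2 libraries gave edgeR adjusted p-values of 0.778 or more. Its value was -0.98 to -0.71 with 1 library left out at a time. The sex comparison called 66 genes (0.345%) within cKO and 18 (0.094%) within WT, Cd44 in neither. No other of the 7 had an unadjusted p under 0.05 in the genotype-by-sex interaction, and none had one in the running-by-sex interaction, where 2336 genes (12.2%) did.

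Over the 25 libraries Vcan, Cd44 and Has1 varied together, and these 3 were the only pairs of 21 with an adjusted permutation p of Pearson's r under 0.05. Correlations are of log2 CPM, with p-values from 100000 permutations of the libraries, two-sided, adjusted over the 21 pairs. Has1 and Cd44 gave a Pearson r of 0.62 with an adjusted permutation p of 0.0142 and a Spearman rho of 0.61 with 0.0269. Vcan and Cd44 gave an r of 0.61 with an adjusted permutation p of 0.0142 and a rho of 0.55 with 0.0548. Vcan and Has1 gave an r of 0.54 with an adjusted permutation p of 0.0350 and a rho of 0.52 with 0.0601. The trio holds the receptor, the proteoglycan and 1 synthase. These p-values are against no correlation. How often other pairs of tested genes reach such r is not given, so the trio is not shown to stand out. Vcan and Has2 gave an r of 0.39 with an adjusted permutation p of 0.156.

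Without the 2 libraries farthest from the median of the first gene of each pair, r was 0.52 (permutation p = 0.0102) for Has1 and Cd44 and 0.44 (permutation p = 0.0384) for Vcan and Cd44. For Vcan and Has1 it was 0.39 (permutation p = 0.0690), a p above 0.05. With group means and sex removed, the residuals gave an r of 0.66 for Vcan and Cd44, 0.60 for Vcan and Has1 and 0.58 for Has1 and Cd44. In the 23 libraries of the more common library project r was 0.63 for Vcan and Cd44, 0.54 for Vcan and Has1 and 0.72 for Has1 and Cd44. Without the 2 libraries apart on the second principal component r was 0.57 for Vcan and Cd44, 0.47 for Vcan and Has1 and 0.59 for Has1 and Cd44.

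**Figure D5:**
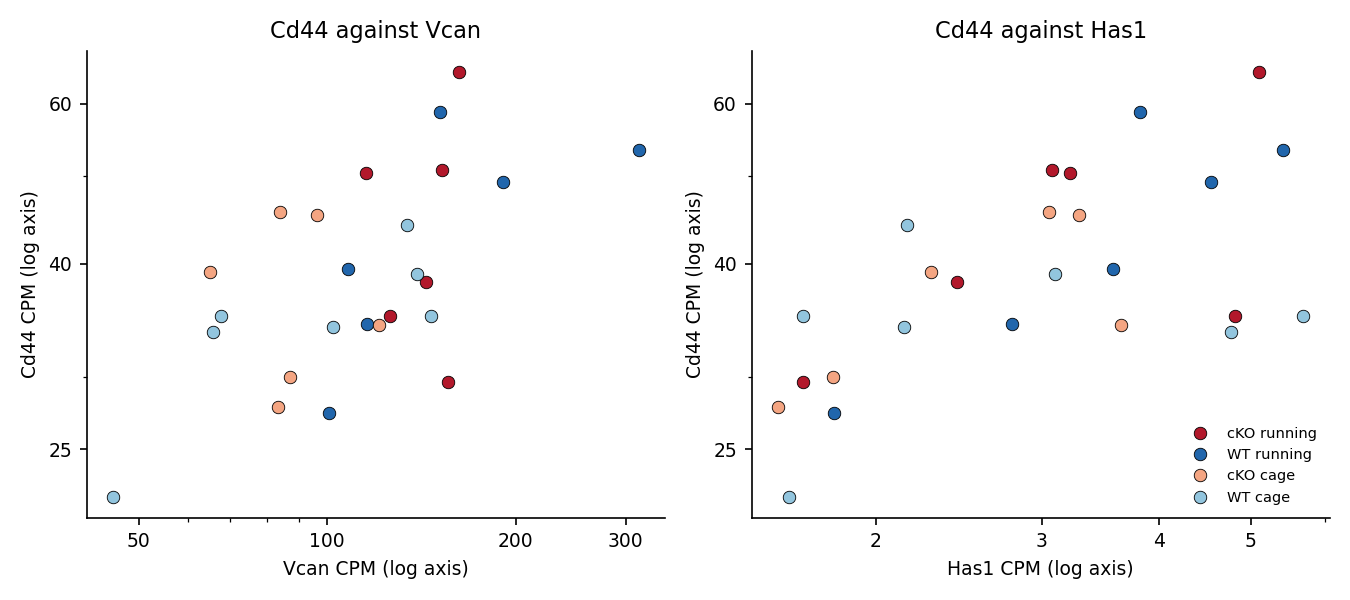
Cd44 against Vcan (left) and against Has1 (right) in TMM-scaled CPM on log axes, 1 point per library coloured by group. Cd44 climbs with both, with r of 0.61 and 0.62 over 25 libraries. Along the Vcan axis all 12 runners lie above the cage median, and 6 of them lie above every cage library.

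Of 11723 genes compared, those with a pattern across the 25 libraries most like each of the 7 were found by Pearson r of log2 CPM, and are given as a description with no test. Cd44 was most like Fn1 (fibronectin, a matrix glycoprotein), with an r of 0.87, then Crip1 at 0.84 and Ptgfrn at 0.84. Vcan was most like Tnfrsf11b (osteoprotegerin, a decoy receptor for RANKL), with an r of 0.85, then Htra4, a serine protease, at 0.78 and Slc6a6, the taurine transporter, at 0.77. In runners Htra4 had a log2 fold change of 1.38 ± 0.37 with an edgeR adjusted p of 0.0591, Fn1 one of 0.68 ± 0.24 with 0.167, and Tnfrsf11b one of 0.71 ± 0.27 with 0.208. All 3 lay above 0 in runners without a call. They were picked for likeness to Vcan or Cd44 over the same libraries, so their direction is no separate evidence. With group means and sex removed, Tnfrsf11b ranked 2, Htra4 8 and Slc6a6 59 in likeness to Vcan, and Fn1 ranked 2 for Cd44.

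Has2 was most like Pik3r1, a regulatory subunit of PI3-kinase, at an r of 0.81, Gria3, a glutamate receptor subunit, at 0.81, and Fgfr2, a fibroblast growth factor receptor, at 0.80. Of these Gria3 was called higher in males, at 0.64 ± 0.14 with an edgeR adjusted p of 0.0326, and Fgfr2 gave 0.65 ± 0.19 with 0.173. These genes were picked for likeness to Has2 over the same libraries, so a shared sex difference is no separate evidence. With group means and sex removed, Pik3r1 ranked 3, Fgfr2 30 and Gria3 75 in likeness to Has2. Has1 was most like Sox5, a transcription factor of cartilage, at 0.75, Cyp1b1 at 0.74 and Anln at 0.73. Hyal2 was most like Reep4 at 0.78, Tmbim6 at 0.77 and Pitpnm1 at 0.72, and Hyal1 like Shank1 at 0.71, Slc6a17 at 0.71 and Nod1 at 0.70. Has3 had the weakest likeness, with Tmtc4 and an entry named Pakap at 0.64 each, and with Itpr2 at 0.64.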

How the data were processed

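Achilles tendon RNA was sequenced in 25 libraries, grouped by genotype and activity from the titles, with sex and replicate number. The tools listed in the submitters' processing notes, with no role stated, are RSEM 1.3.3, STAR 2.7.8a, cutadapt 2.3 and FastQC 0.11.8, and the build is GRCm38 (mm10). The authors deposited RSEM expected counts per gene and, in another table, FPKM values, which are scaled to gene length and depth. Annotation release and strandedness are not given in the sources used here.

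The expected counts, whole numbers as deposited, were rounded and tested with edgeR 4.0.16 (R 4.3.3). The 4 reporter entries (Cre, eGFP, mCherry and tdTomato) stayed out of the tests. filterByExpr on the 4 groups left 19155 genes, which were scaled by TMM and tested by quasi-likelihood F-tests in a model of 4 group means and sex. P-values are two-sided and adjusted by Benjamini-Hochberg over all tested genes, with a threshold of 0.05 for a call. Sex interactions used 8 group means and were added after the values were seen. The procedure was run on simulated counts with fold changes larger than those called here for Vcan and Has2. That run does not cover effects of their size. Alternatives used DESeq2 1.42.0, limma 3.58.1 (voom, and log2(FPKM + 1) and log2(FPKM + 0.1)), other filters and scaling, covariates and subsets of libraries. Pairs of genes were tested with 100000 permutations, and positions come from GENCODE M21.

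The 7 genes, the 66 pathway genes and the marker lists were chosen with earlier results of these data known. Pathway genes named are the 2 above and the 2 below 0 with the smallest p in a comparison, and like genes are the 3 with the highest r. Total counts of 13193228 to 45724243 limit the precision of genes with few counts.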

Additional observations from a re-analysis of the deposited data

How the results depend on the processing

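Over the fits with another scaling, filter, tool, covariate or set of libraries, 855 of 944 values of the 7 genes kept their direction and their side of the threshold, 71 changed sign, 16 lost a call and 2 gained one, and no value that changed sign was called. The Vcan call over both genotypes held without a filter, with a filter of 1 CPM in 6 libraries, DESeq2, limma-voom with library quality weights (weighted limma-voom), the muscle covariate and without the project pair (6 of 15 fits), and was lost with RLE scaling, FPKM, no sex term, the eGFP and mitochondrial rRNA covariates, the replicate block and without the PC2 or reporter pairs, so the number of the 7 genes called was then 0. The Has2 call held in 7 of 14 fits and was lost with a filter of 1 CPM in 6 libraries, FPKM, the eGFP covariate, and without the project pair, the reporter pair or eGFP carriers. Without a filter, Vcan was also called in running/cage in cKO (1 of the 7 genes), and so was Cd44 in the genotype-by-sex interaction, at -0.81 with an edgeR adjusted p of 0.0381. The cause was not tested. The PC2 pair is WT running female replicate 2 and WT running male replicate 3, the project pair is cKO cage male replicate 3 with WT cage female replicate 4, and the reporter pair is cKO cage female replicate 3 and WT running male replicate 2. On log2(FPKM + 1) the median of all genes shifted to 0.12 in cKO/WT runners, 0.18 in running/cage in cKO, 0.11 over both genotypes and 0.15 in the interaction, and values on that scale are read against it.

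The number of genes called moved by more than 1.5 times in these fits. The fits without a filter and with 1 CPM in 6 libraries tested other sets of genes. Without a filter the counts were 4 in cKO/WT at cage activity, 282 in cKO/WT in runners, 91 in cKO/WT over both activities, 197 in running/cage in WT, 574 in running/cage in cKO, 715 in running/cage over both genotypes, 65 in the interaction, 445 in male/female. With limma on log2(FPKM + 1) the counts were 1 in cKO/WT in runners, 0 in cKO/WT over both activities, 5 in running/cage in cKO, 155 in running/cage over both genotypes, 41 in male/female. Without the reporter pair the counts were 2 in cKO/WT in runners, 2 in cKO/WT over both activities, 10 in running/cage in WT, 4 in running/cage in cKO, 135 in running/cage over both genotypes. With DESeq2 the counts were 2 in cKO/WT over both activities, 157 in running/cage in WT, 208 in running/cage in cKO, 637 in running/cage over both genotypes, 251 in male/female. With weighted limma-voom the counts were 0 in cKO/WT over both activities, 90 in running/cage in WT, 384 in running/cage in cKO, 912 in running/cage over both genotypes, 442 in male/female. With limma on log2(FPKM + 0.1) the counts were 0 in cKO/WT over both activities, 14 in running/cage in WT, 3 in running/cage in cKO, 147 in running/cage over both genotypes, 46 in male/female. With the muscle covariate the counts were 0 in cKO/WT over both activities, 286 in running/cage in WT, 30 in running/cage in cKO, 492 in running/cage over both genotypes, 230 in male/female. With the eGFP covariate the counts were 0 in cKO/WT over both activities, 16 in running/cage in WT, 0 in running/cage in cKO, 11 in running/cage over both genotypes. With the replicate block the counts were 0 in cKO/WT over both activities, 12 in running/cage in WT, 1 in running/cage in cKO, 148 in running/cage over both genotypes. Without the PC2 pair the counts were 0 in cKO/WT over both activities, 6 in running/cage in WT, 16 in running/cage in cKO. Without the project pair the counts were 12 in running/cage in WT, 3 in running/cage in cKO, 127 in running/cage over both genotypes. Without eGFP carriers the counts were 15 in running/cage in WT, 29 in male/female. With the mitochondrial rRNA covariate the counts were 5 in running/cage in cKO, 61 in running/cage over both genotypes.

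Vcan changed sign in cKO/WT in runners, at 0.13 (limma on log2(FPKM + 1)), 0.15 (limma on log2(FPKM + 0.1)), 0.043 (without the PC2 pair), in the interaction, at -0.035 (no sex term), -0.13 (the replicate block), -0.072 (without the project pair) and in running by sex, at -0.16 (without the PC2 pair). Has1 changed sign in cKO/WT in runners, at 0.039 (limma on log2(FPKM + 1)), 0.076 (limma on log2(FPKM + 0.1)), 0.034 (without the PC2 pair), in running/cage in cKO, at -0.065 (the mitochondrial rRNA covariate), in running/cage over both genotypes, at -0.029 (the mitochondrial rRNA covariate), in the interaction, at -0.094 (weighted limma-voom), -0.15 (the muscle covariate), -0.072 (the mitochondrial rRNA covariate), -0.066 (the replicate block) and in male/female, at 0.037 (the mitochondrial rRNA covariate). Has2 changed sign in running/cage in WT, at 0.0038 (limma on log2(FPKM + 1)), 0.021 (no sex term), in running/cage in cKO, at -0.053 (the muscle covariate) and in running/cage over both genotypes, at -0.067 (weighted limma-voom), -0.089 (the muscle covariate), -0.10 (the mitochondrial rRNA covariate), -0.12 (without the PC2 pair). Has3 changed sign in cKO/WT over both activities, at -0.0055 (RLE scaling), -0.0053 (a filter of 1 CPM in 6 libraries), -0.0060 (DESeq2), -0.047 (the muscle covariate), -0.016 (the eGFP covariate), -0.0026 (the replicate block), -0.017 (without the PC2 pair), -0.044 (without the project pair) and in running/cage in WT, at 0.0014 (weighted limma-voom), 8.3e-06 (no sex term), 0.0082 (the replicate block), 0.023 (without the PC2 pair), 0.011 (without the reporter pair), 0.0034 (without eGFP carriers). Cd44 changed sign in cKO/WT at cage activity, at -0.016 (weighted limma-voom), in cKO/WT in runners, at -0.021 (weighted limma-voom), -0.020 (the muscle covariate), -0.019 (the eGFP covariate), in cKO/WT over both activities, at -0.019 (weighted limma-voom), in the interaction, at 0.15 (limma on log2(FPKM + 1)), 0.16 (limma on log2(FPKM + 0.1)), 0.034 (without the reporter pair) and in male/female, at 0.021 (without eGFP carriers). Hyal1 changed sign in cKO/WT in runners, at -0.076 (the muscle covariate), -0.091 (the eGFP covariate), -0.037 (without the reporter pair), in cKO/WT over both activities, at 0.00033 (limma on log2(FPKM + 1)), 0.0058 (without the PC2 pair), in running/cage in WT, at -0.0078 (without a filter), -0.26 (weighted limma-voom), -0.025 (limma on log2(FPKM + 1)), -0.077 (limma on log2(FPKM + 0.1)), -0.039 (the muscle covariate), -0.0093 (the eGFP covariate), -0.11 (the mitochondrial rRNA covariate), -0.065 (the replicate block), -0.13 (without the PC2 pair) and in genotype by sex, at 0.015 (the mitochondrial rRNA covariate), 0.34 (without the PC2 pair). Hyal2 changed sign in cKO/WT at cage activity, at 0.030 (weighted limma-voom), in cKO/WT in runners, at -0.0022 (the eGFP covariate), in cKO/WT over both activities, at -0.060 (the eGFP covariate), -0.0014 (without the PC2 pair) and in running/cage in WT, at -0.0060 (the eGFP covariate), -0.021 (without the project pair), -0.063 (without the reporter pair), -0.080 (without eGFP carriers). With 1 library left out at a time, the number of the 7 genes called was 0 to 1 over both genotypes in running/cage and in male/female, and the genes called were 0 to 2 in cKO/WT in runners, 0 to 2 in cKO/WT over both activities, 11 to 39 in running/cage in WT, 3 to 60 in running/cage in cKO, 127 to 568 in running/cage over both genotypes. Values of the genes that changed sign in such fits ran -0.044 to 0.26 for Has2 in cKO/WT at cage activity, -0.16 to 0.013 for Has3 in cKO/WT at cage activity, -0.017 to 0.17 for Cd44 in cKO/WT at cage activity, -0.11 to 0.011 for Hyal2 in cKO/WT at cage activity, -0.25 to 0.087 for Vcan in cKO/WT in runners, -0.32 to 0.032 for Has1 in cKO/WT in runners, -0.11 to 0.11 for Cd44 in cKO/WT in runners, -0.029 to 0.31 for Hyal1 in cKO/WT in runners, -0.042 to 0.060 for Has3 in cKO/WT over both activities, -0.017 to 0.10 for Cd44 in cKO/WT over both activities, -0.17 to 0.045 for Hyal1 in cKO/WT over both activities, -0.24 to 0.080 for Has2 in running/cage in WT, -0.064 to 0.074 for Has3 in running/cage in WT, -0.22 to 0.12 for Hyal1 in running/cage in WT, -0.11 to 0.14 for Hyal2 in running/cage in WT, -0.026 to 0.13 for Has2 in running/cage over both genotypes, -0.12 to 0.26 for Vcan in the interaction, -0.15 to 0.21 for Has1 in the interaction, -0.19 to 0.022 for Cd44 in the interaction, -0.35 to 0.034 for Has2 in genotype by sex, -0.24 to 0.22 for Hyal1 in genotype by sex, -0.10 to 0.24 for Hyal2 in genotype by sex, -0.14 to 0.23 for Vcan in running by sex.

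Same-numbered libraries of different groups deviated from their group means with a median correlation of -0.01, from -0.20 to 0.21 over 34 pairs. These values showed no clear pairing by number and do not exclude one. Of 25 libraries, 4 correlated best with their own number. With the replicate number within sex as a block in place of the sex term, the Vcan log2 fold change over both genotypes in running/cage had an edgeR adjusted p of 0.055. Has1, at 29 to 269 counts, has the fewest counts of the 7, so depth limits its precision most.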
